A study of Homo sapiens with 16 samples.

Results

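The genes described here are those whose response to an EZH2 inhibitor (EZH2i) and a PRMT5 inhibitor (PRMT5i) given together departed from the sum of the responses to each alone, in MOLM-13 cells, a human acute myeloid leukaemia line. For every gene the log2 change between the combination and PRMT5i was compared with the log2 change between EZH2i and DMSO, and the interaction is the difference of these changes. An interaction of 0 means that the effects add on the log2 scale, and a positive value means that the combination lay above that sum. Of 60669 genes in the table, 16555 were tested, and 47 passed an adjusted p of 0.05 for the interaction in edgeR's quasi-likelihood test with Benjamini-Hochberg adjustment, which is 0.284% of the genes tested. All 47 are protein-coding. The combination lay above the additive level for 41 genes (0.248%) and below it for 6 genes (0.0362%).

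Cells were grown in RPMI1640 with 10% FBS and treated for 4 days. The combination cells received EZH2i at 1 µM with PRMT5i at 1 µM, the PRMT5i cells PRMT5i alone at 1 µM, the EZH2i cells EZH2i alone at 1 µM, and the control cells DMSO at 0.005%. The labels do not name the compounds. Each group had 4 RNA-seq libraries, all from the same cell line, and no source used here says whether the 4 are separate cultures, so p-values reflect variation among samples that may be technical. Every table column was used, since the interaction draws on all 4 groups.

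EZH2 is the catalytic subunit of polycomb repressive complex 2 (PRC2), which methylates histone H3 at lysine 27 and keeps developmental genes silent. PRMT5 places symmetric dimethyl marks on arginines of histones, Sm proteins of the spliceosome and other substrates. Interferon-stimulated genes, which make up most of the genes above the additive level, are antiviral and signalling genes. They respond to interferon through complexes of transcription factors, such as that of STAT2 with IRF9, that bind GAAA repeats in their promoters.

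The libraries held 31.1 to 52.9 M expected counts. Within groups, the DMSO libraries spread most on the second principal component (16.8% of the variance), with replicate 1 at 62.3 and replicate 2 at −32.1, while the first (36.5%) separated libraries with PRMT5i from those without. DMSO replicate 1 also had the largest share of counts from the mitochondrial genome, 1.70% against 0.213 to 0.792% in the other 15 libraries. Of this, 1.61% came from the mitochondrial ribosomal RNAs, while its share from the 13 mitochondrially encoded protein genes was the lowest, 0.0884% against 0.206 to 0.480% in the other libraries. It had an EZH2 level of 21.5 CPM (counts scaled to a common library size) against 42.4 to 43.8 CPM in the other DMSO libraries. Of 14 markers of acute myeloid leukaemia blasts, 12 were tested, with summed levels of 1632 to 1706 CPM in combination libraries, 1879 to 1925 CPM in PRMT5i, 1261 to 1347 CPM in EZH2i and 1444 to 1559 CPM in DMSO. For the mRNA of the targets, EZH2 had an interaction of 0.13 log2 units (SE 0.22, adjusted p = 0.831) and PRMT5 one of 0.07 (SE 0.11, adjusted p = 0.83), and neither passed the test.

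Among the 41 genes above the additive level, the estimated EZH2i effect was positive in PRMT5-inhibited cells and negative in cells without PRMT5i for 40. The exception was CDC45, whose estimates were positive in both settings. In tests of each setting, 33 of the 41 rose with EZH2i on top of PRMT5i, against 2.92% of all genes tested, and 29 of the 41 fell with EZH2i against DMSO, against 3.39%. Both calls held, in opposite directions, for 21 of the 41, and over all genes tested that pattern also had 21 members (0.127%). These counts describe the interaction and add no support to it, since it is the difference of these effects. All 4 combination libraries lay above all 4 PRMT5i libraries for 38 of the 41 genes, against 10.2% of all genes tested, and all 4 EZH2i libraries lay below all 4 DMSO libraries for 29, against 5.1%. The level in the combination was 1.53 to 12.1 times the level that additive log2 effects would give, with a median of 2.47, for 40 of the 41 genes. GDAP1L1 is left out of this range because its PRMT5i libraries held a single count in all. For all 47 genes the departure had the same sign when effects were added as CPM differences.

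**Figure D1:**
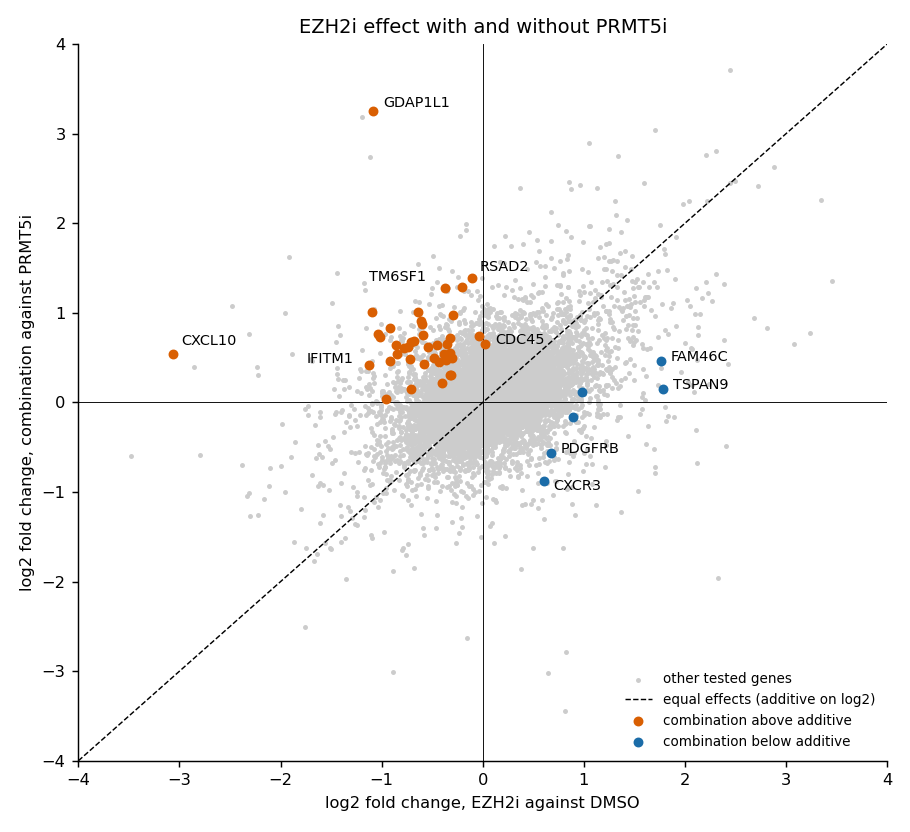
Each point is a tested gene, with the log2 fold change of EZH2i against DMSO on the x axis and that of the combination against PRMT5i on the y axis; orange and blue points are genes with an interaction past an adjusted p of 0.05, the dashed line marks equal effects, and 19 genes fall outside the axes. Of the 41 orange points, 40 lie to the upper left of the origin, with a positive estimate in PRMT5-inhibited cells and a negative one without PRMT5i.

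Over all 16555 genes the median interaction was 0.01 on the log2 scale, with quartiles of −0.21 and 0.22 and a median SE of 0.22. At an unadjusted p below 0.05, 895 genes (5.41%) had a positive and 579 (3.5%) a negative interaction, 1474 (8.9%) in all, where 5% of the genes tested is 827.8. At an adjusted p below 0.1 there were 69 genes, 54 of them higher and 15 lower. Among the 47 called genes the size of the interaction ran from 0.62 to 3.6 with GDAP1L1 left out, and 33 of the 47 were at 1 or more. In bulk RNA, fewer cells carrying a transcript cannot be told apart from less of it per cell.

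Of the 36 genes on a list of interferon-stimulated genes, all 36 were tested and 25 were above the additive level, none below, against 0.248% and 0.0362% of all genes. The median interaction of the list was 1.24, beside 0.01 for all genes tested. The estimate was positive for 35 of 36, with BST2, a membrane tether of budding virus, at −0.03 (SE 0.27). The list's median log2 effect of EZH2i was 0.58 with PRMT5i and −0.59 without it, while both medians over all genes lay within 0.01 of 0. On top of PRMT5i, 24 of the 36 rose with EZH2i and 0 fell, against 2.92% and 1.22% of all genes. Without PRMT5i 22 fell and 0 rose, against 3.39% and 4.05% of all genes. The call counts of the list ran from 20 to 31 genes when each library was left out in turn, and 30 of 36 passed in DESeq2. Over all 16555 genes the fits that left out a library gave 28 to 140 calls in either direction, and DESeq2 gave 121.

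**Figure D2:**
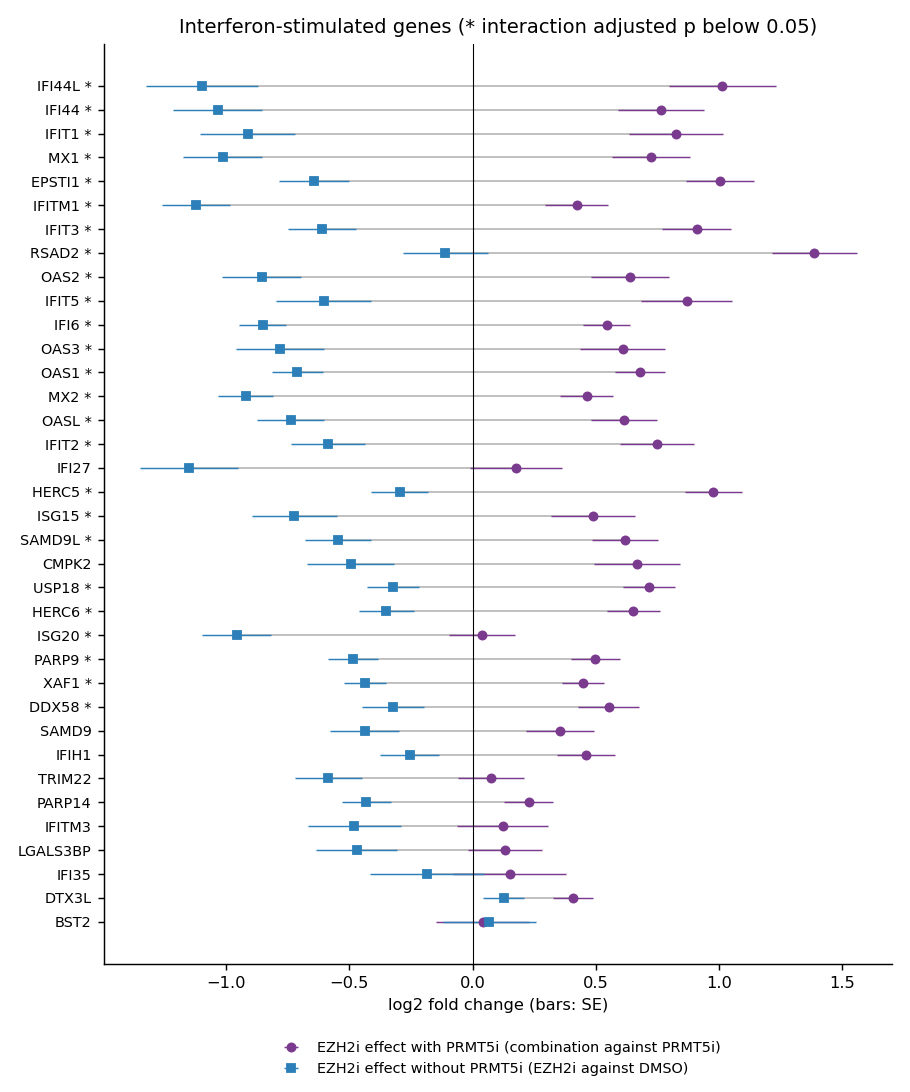
Each row is an interferon-stimulated gene, with its log2 fold change and SE for EZH2i in PRMT5-inhibited cells (circles) and in cells without PRMT5i (squares), and an asterisk where the interaction passed an adjusted p of 0.05. The circles of 24 genes passed as higher and the squares of 22 genes passed as lower, so that most pairs straddle 0.

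The promoters of some called genes are shown because GAAA repeats, the letters that these complexes of transcription factors recognise, stand in several of them. A reader can thus see which genes hold the motif and which do not. Sequences are from RefSeq on GRCh38.p14 and run from 250 bases before to 50 bases after the gene's start, 5′ to 3′ on the gene's strand. The promoters lie at chr1:27672143-27672442 on the minus strand for IFI6, chr4:76023448-76023747 on the minus strand for CXCL10, chr12:112906712-112907011 on the plus strand for OAS1, chr13:42992192-42992491 on the minus strand for EPSTI1 and chr1:117605798-117606097 on the plus strand for FAM46C, a gene below the additive level. Capitals mark matches to GAAANNGAAA, which was searched on both strands.
IFI6: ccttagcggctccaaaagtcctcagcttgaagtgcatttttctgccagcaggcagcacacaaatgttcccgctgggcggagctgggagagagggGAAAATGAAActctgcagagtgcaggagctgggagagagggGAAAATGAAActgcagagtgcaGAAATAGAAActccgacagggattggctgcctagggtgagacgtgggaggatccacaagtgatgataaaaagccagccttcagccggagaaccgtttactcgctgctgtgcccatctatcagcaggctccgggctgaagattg
CXCL10: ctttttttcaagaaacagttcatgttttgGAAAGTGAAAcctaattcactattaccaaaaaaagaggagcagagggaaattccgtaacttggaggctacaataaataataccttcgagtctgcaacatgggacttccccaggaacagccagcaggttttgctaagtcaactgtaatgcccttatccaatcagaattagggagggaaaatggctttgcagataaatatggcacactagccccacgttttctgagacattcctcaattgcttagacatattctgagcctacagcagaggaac
OAS1: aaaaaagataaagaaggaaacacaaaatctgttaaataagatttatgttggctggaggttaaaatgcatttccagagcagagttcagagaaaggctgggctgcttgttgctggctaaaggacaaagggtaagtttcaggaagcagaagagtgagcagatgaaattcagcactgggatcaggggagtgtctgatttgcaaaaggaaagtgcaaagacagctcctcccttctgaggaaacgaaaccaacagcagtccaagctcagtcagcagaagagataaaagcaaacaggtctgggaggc
EPSTI1: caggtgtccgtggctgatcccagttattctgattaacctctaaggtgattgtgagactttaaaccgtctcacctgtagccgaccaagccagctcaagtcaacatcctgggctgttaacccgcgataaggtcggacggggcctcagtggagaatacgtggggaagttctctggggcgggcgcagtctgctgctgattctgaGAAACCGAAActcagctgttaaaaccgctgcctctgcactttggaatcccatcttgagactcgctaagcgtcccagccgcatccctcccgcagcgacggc
FAM46C: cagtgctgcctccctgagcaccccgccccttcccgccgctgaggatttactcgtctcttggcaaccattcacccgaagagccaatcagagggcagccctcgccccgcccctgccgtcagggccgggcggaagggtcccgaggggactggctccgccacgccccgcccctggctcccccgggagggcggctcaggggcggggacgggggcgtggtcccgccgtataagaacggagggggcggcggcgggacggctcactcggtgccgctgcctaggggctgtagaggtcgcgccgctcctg
IFI6 holds 3 matches, which start 156, 115 and 93 bases before the gene's start, CXCL10 holds 1 at 221 bases before it and EPSTI1 holds 1 at 50 bases before it. OAS1 and FAM46C hold no match to GAAANNGAAA in this window. The OAS1 sequence does hold gaaacgaaa, a GAAA repeat with a shorter spacing, which was not searched for. RefSeq promoters could be matched to 33 of the 41 genes above the additive level, of which 16 (48.5%) hold the motif, and to 5 of the 6 genes below it, of which 1 (20%) holds it, namely PDGFRB. Among 11073 tested genes with a promoter the share was 3.04%, and among all 35116 RefSeq promoters it was 3.57%. A match describes the letters and does not show binding.

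IFI6, an interferon-induced mitochondrial and endoplasmic reticulum protein (chr1:27666061-27672218), had the smallest interaction p. It measured 83.8, 79.3, 86.4 and 72.4 CPM in combination libraries and 58.6, 62.7, 51.2 and 48.0 CPM in PRMT5i libraries. It measured 23.8, 22.7, 25.3 and 21.1 CPM in EZH2i libraries and 39.3, 41.4, 44.4 and 42.7 CPM in DMSO libraries. The 4 groups did not overlap, and the combination was the highest and EZH2i alone the lowest. The EZH2i effect was 0.55 with PRMT5i (SE 0.10, adjusted p = 0.00376) and −0.85 without it (SE 0.10, adjusted p = 0.000123) on the log2 scale, and the interaction was 1.40 (SE 0.14, adjusted p = 0.000106). Additive effects would give 30.5 CPM in the combination, which averaged 80.5 ± 6.14 CPM (SD, n = 4).

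The oligoadenylate synthetases, which activate RNase L when they sense viral RNA, departed in the same direction. OAS1 (chr12:112906777-112933222) measured 38.6, 45.1, 35.8 and 34.8 CPM in combination libraries and 25.7, 25.1, 23.4 and 22.3 CPM in PRMT5i libraries, against 13.6, 11, 13.8 and 13.1 CPM in EZH2i libraries and 21.8, 19.0, 20.6 and 23.0 CPM in DMSO libraries. PRMT5i and DMSO libraries overlapped, while the combination lay above and EZH2i alone below all others. Its interaction was 1.39 (SE 0.15, adjusted p = 0.000166). The interaction was 1.5 for OAS2 (SE 0.23, adjusted p = 0.00403), 1.39 for OAS3 (SE 0.25, adjusted p = 0.0166) and 1.35 for OASL, a relative that lacks the enzymatic activity (SE 0.19, adjusted p = 0.00256). OAS3 was less regular, since its DMSO replicate 1 held 9.34 CPM against 16.8 to 17.9 CPM in the other DMSO libraries.

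The dynamin-like GTPases MX1 and MX2, which block incoming virus, are neighbours on chromosome 21. MX1 (chr21:41420304-41459214) averaged 116 ± 18.0 CPM in the combination, 70.1 ± 15.9 CPM with PRMT5i, 20.4 ± 2.77 CPM with EZH2i and 41.2 ± 5.47 CPM with DMSO (SD, n = 4 each), an interaction of 1.74 (SE 0.22, adjusted p = 0.00116). Its PRMT5i libraries fell into a higher pair, replicates 1 and 2 at 83.9 and 83.6 CPM, and a lower pair, replicates 3 and 4 at 59.9 and 53.1 CPM, and the combination libraries at 127, 133, 111 and 93.1 CPM stayed above all 4. MX2 averaged 59.0 ± 3.58 CPM in the combination, 42.8 ± 2.84 CPM with PRMT5i, 15.2 ± 1.90 CPM with EZH2i and 28.8 ± 4.01 CPM with DMSO, an interaction of 1.38 (SE 0.16, adjusted p = 0.000362). Both genes had groups that did not overlap.

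The IFIT proteins bind viral RNA and form a cluster on chromosome 10, in which all 4 tested members were called. IFIT1 had an interaction of 1.74 (SE 0.27, adjusted p = 0.00546), IFIT3 of 1.52 (SE 0.20, adjusted p = 0.00116), IFIT5 of 1.47 (SE 0.27, adjusted p = 0.0195) and IFIT2 of 1.34 (SE 0.21, adjusted p = 0.00599). IFIT2 and IFIT3 fell with PRMT5i alone, with log2 changes of −0.59 and −0.45 (adjusted p = 0.00491 and 0.0184), and rose with PRMT5i added to EZH2i, by 0.74 and 1.07 (adjusted p = 0.00129 and 2.31e-05). IFIT3 averaged 82.5 ± 8.83 CPM in the combination and 43.9 ± 7.78 CPM with PRMT5i, against 39.2 ± 4.01 CPM with EZH2i and 59.9 ± 10.0 CPM with DMSO. Each agent alone left IFIT3 below DMSO, while the 2 together left it above. The 4 IFIT1 DMSO libraries spread from 27.2 CPM in replicate 2 to 53.3 CPM in replicate 1.

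RSAD2, which encodes the antiviral enzyme viperin, differed in that EZH2i alone did not move it past the test. It measured 40.3, 38.1, 33.4 and 32.3 CPM in combination libraries and 17, 15.4, 10.1 and 12.6 CPM in PRMT5i libraries, against 15.6, 15.2, 12.7 and 14.5 CPM in EZH2i libraries and 20.2, 10.8, 14.6 and 17.1 CPM in DMSO libraries. The combination libraries stood above all 12 others, which overlapped. RSAD2 rose by 1.39 with EZH2i on top of PRMT5i (SE 0.17, adjusted p = 0.000327), while its estimate without PRMT5i was −0.11 (SE 0.17, adjusted p = 0.71), an interaction of 1.5 (SE 0.24, adjusted p = 0.00756). HERC5, the ligase that attaches ISG15 to proteins, rose by 0.98 with EZH2i on top of PRMT5i (SE 0.11, adjusted p = 0.000229). Its estimate without PRMT5i was −0.30 (SE 0.12, adjusted p = 0.118), also not past the test, and the interaction was 1.27 (SE 0.16, adjusted p = 0.00114). Unlike for RSAD2, the EZH2i libraries of HERC5, at 11.3 to 12.9 CPM, all lay below its DMSO libraries, at 13.9 to 15.9 CPM. For USP18, which removes ISG15 and dampens interferon receptor signalling, the effects were 0.72 (SE 0.10, adjusted p = 0.00105) and −0.32 (SE 0.11, adjusted p = 0.0686).

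Other genes fell with EZH2i alone, while the effect of EZH2i on top of PRMT5i was not called. ISG20, an exonuclease, averaged 4.19 ± 0.416 CPM in the combination and 4.08 ± 0.277 CPM with PRMT5i, against 1.81 ± 0.330 CPM with EZH2i and 3.52 ± 0.407 CPM with DMSO, so that it fell by 0.96 with EZH2i alone (SE 0.14, adjusted p = 0.000874) and had an estimate of 0.04 on top of PRMT5i (SE 0.13, adjusted p = 0.952). ISG15, the ubiquitin-like modifier itself, had 0.49 (SE 0.17, adjusted p = 0.136) and −0.72 (SE 0.17, adjusted p = 0.0184). IFITM1, which hinders viral entry, had 0.42 (SE 0.13, adjusted p = 0.0761) and −1.12 (SE 0.14, adjusted p = 0.000232), and its values are uncertain because 32.5% of its exon bases overlap IFITM2 and no source used here states whether counting used strand.

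On the list of interferon-stimulated genes, which leaves out CXCL10, the interaction was largest for IFI44L, at 2.11 (SE 0.31, adjusted p = 0.00403). It measured 37.5, 44.1, 42.0 and 39.3 CPM in combination libraries and 21.8, 20.4, 20.3 and 18.1 CPM in PRMT5i libraries, against 4.52, 4.78, 8.28 and 7.64 CPM in EZH2i libraries and 13, 7.20, 16.3 and 17.2 CPM in DMSO libraries. The combination stood above PRMT5i in every library, while DMSO replicate 2 fell within the range of the EZH2i libraries. Its neighbour IFI44 had an interaction of 1.80 (SE 0.25, adjusted p = 0.0023), and EPSTI1 (chr13:42886388-42992271) one of 1.65 (SE 0.20, adjusted p = 0.000719), with 23.1 ± 1.02 CPM in the combination, 11.5 ± 1.73 CPM with PRMT5i, 5.87 ± 0.777 CPM with EZH2i and 9.12 ± 1.70 CPM with DMSO. XAF1, which promotes apoptosis, had 0.89 (SE 0.12, adjusted p = 0.00213), and 38.3% of its exon bases overlap PRAL, which leaves its counts uncertain. The remaining called members of the list, PARP9, HERC6, SAMD9L and DDX58, had interactions between 0.88 and 1.16. The RNA sensor DDX58, known as RIG-I, was near the threshold at an adjusted p of 0.0435.

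**Figure D3:**
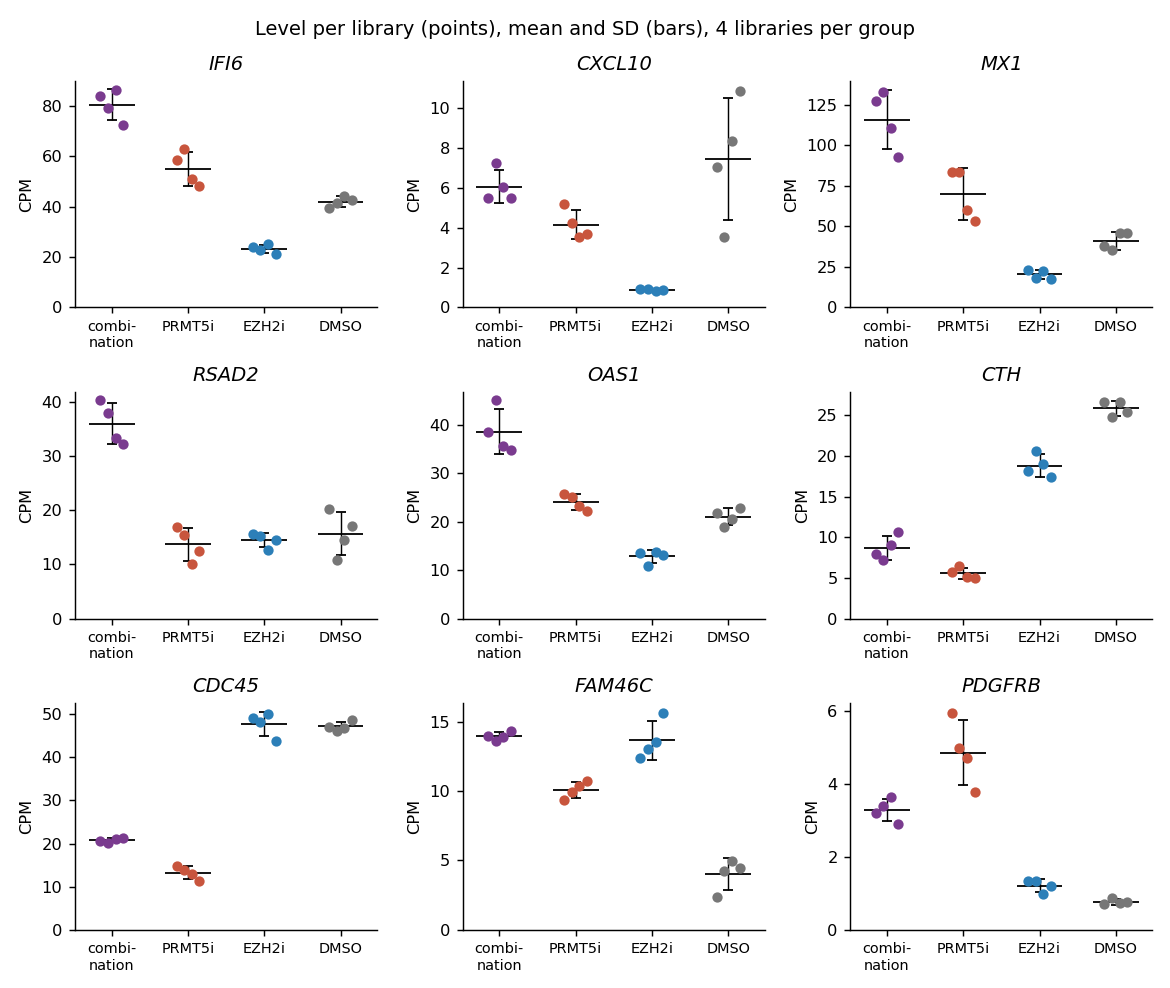
Levels in CPM for 9 called genes, with each library as a point and the mean and SD as bars for the combination, PRMT5i, EZH2i and DMSO (4 libraries each). In IFI6, MX1 and OAS1 the combination is highest and EZH2i alone lowest, in CTH and CDC45 both groups with PRMT5i lie below both groups without it, and in FAM46C the DMSO libraries, at 2.38 to 4.97 CPM, lie below the other 3 groups.

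The transcription factor genes STAT2, IRF9 and IRF7 had interactions below the median of the interferon-stimulated genes. STAT2 averaged 90.1 ± 2.91 CPM in the combination, 77.8 ± 3.06 CPM with PRMT5i, 72.8 ± 5.69 CPM with EZH2i and 96.3 ± 5.14 CPM with DMSO, an interaction of 0.62 (SE 0.10, adjusted p = 0.0102). STAT2 thus fell with each agent alone, and the combination was not called against DMSO (log2 change −0.10, adjusted p = 0.328). IRF9, the DNA-binding partner of STAT2, had an interaction of 0.55 (SE 0.15) that did not pass (adjusted p = 0.235), and IRF7 did not pass at 0.65 (SE 0.18, adjusted p = 0.251).

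The 29 tested genes of interferon pathway sensors and transcription factors had a median interaction of 0.17. IFNB1, the interferon beta gene, was detected at a mean of 0.409 CPM in the combination, 0.212 CPM with PRMT5i, 0.169 CPM with EZH2i and 0.262 CPM with DMSO, an interaction of 1.53 (SE 0.41) that missed the threshold (adjusted p = 0.221). The nucleic acid sensor ZBP1 had 2.18 (SE 0.58, adjusted p = 0.22) at under 1 CPM in every group, and the receptor genes IFNAR1 and IFNAR2 had −0.34 (SE 0.23) and −0.14 (SE 0.25). These genes were chosen for illustration after their values were seen. Of 15 genes of MHC class I presentation none was called, and the median was 0.10. At an unadjusted p below 0.05, 3 had a positive and 0 a negative interaction, against 5.41% and 3.5% of all genes.

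CXCL10, a chemokine that attracts T cells and a textbook interferon target (chr4:76021117-76023497), had the largest interaction among genes of at least 5 CPM in any group. It measured 5.51, 7.25, 6.04 and 5.51 CPM in combination libraries and 5.20, 4.22, 3.55 and 3.70 CPM in PRMT5i libraries, against 0.931, 0.924, 0.838 and 0.890 CPM in EZH2i libraries and 7.07, 3.52, 8.36 and 10.9 CPM in DMSO libraries. EZH2i alone was below every other library, while DMSO replicate 2 lay below the PRMT5i libraries and the other 3 DMSO libraries above them. CXCL10 fell by 3.06 with EZH2i alone (SE 0.27, adjusted p = 1.16e-05), and its estimate on top of PRMT5i was 0.54 (SE 0.23, adjusted p = 0.255). The interaction was 3.6 (SE 0.35, adjusted p = 0.000106), and the combination held 12.1 times the additive level. Of 22 tested chemokines and cytokines, CXCL10 was the only gene called, and the median interaction was 0.45. At an unadjusted p below 0.05, 9 were higher and 0 lower, against 5.41% and 3.5% of all genes. CXCL11, which binds the same receptor, had 1.49 (SE 0.40, adjusted p = 0.229) and CXCL8 had 1.08 (SE 0.34, adjusted p = 0.318).

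Some genes above the additive level were lowered by PRMT5i itself, which was common among all genes tested. Of all genes, 18.2% were called lower with PRMT5i alone and 14.5% with PRMT5i added to EZH2i. For 8 of the 41 genes PRMT5i lowered the level both alone and on top of EZH2i, and by less on top of EZH2i: CTH, DDIT3, CDC45, HIST1H4I, HIST3H2BB, SIAH2, TM6SF1 and GDAP1L1. None of them is on the list of interferon-stimulated genes. The combination stayed below EZH2i alone in all 8, so that it was above the additive level and still below DMSO (18.5% of all genes were called lower in the combination than in DMSO).

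CTH, cystathionine gamma-lyase, which makes cysteine and is a target of the stress factor ATF4 (chr1:70411218-70439851), measured 7.99, 7.16, 9.0 and 10.6 CPM in combination libraries and 5.76, 6.48, 5.06 and 5.0 CPM in PRMT5i libraries, against 18.2, 20.7, 19.1 and 17.4 CPM in EZH2i libraries and 26.6, 24.8, 26.6 and 25.4 CPM in DMSO libraries. The 4 groups did not overlap. EZH2i raised CTH by 0.64 with PRMT5i (SE 0.12, adjusted p = 0.00559) and lowered it without (log2 change −0.46, SE 0.11, adjusted p = 0.0218), an interaction of 1.09 (SE 0.16, adjusted p = 0.00403). DDIT3, the stress transcription factor CHOP, had 0.86 (SE 0.17, adjusted p = 0.0366), with 38.2 CPM in DMSO replicate 1 against 25 to 27.3 CPM in the other DMSO libraries and 27.2% of its exon bases shared with MARS.

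CTH and DDIT3 were the only 2 called among 31 tested entries of a list of ATF4 targets and serine synthesis genes (1 symbol, CBS, stands for 2 identifiers). At an unadjusted p below 0.05, 17 were higher and 0 lower, against 5.41% and 3.5% of all genes. The median interaction was 0.64. The cystine transporter SLC7A11 averaged 21.7 CPM in the combination, 8.49 CPM with PRMT5i, 57.2 CPM with EZH2i and 78.1 CPM with DMSO, an interaction of 1.80 (SE 0.42) that missed the threshold (adjusted p = 0.114). The list moved with the replicate numbers. Its mean log2(CPM + 1) was 4.44 and 4.34 in combination replicates 1 and 2 and 4.96 and 5.0 in replicates 3 and 4, while the PRMT5i libraries ran from 4.36 to 4.46. The list's median interaction was 0.10 within replicates 1 and 2 and 0.97 within replicates 3 and 4. The corresponding medians of the interferon-stimulated genes were 1.06 and 1.34.

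**Figure D4:**
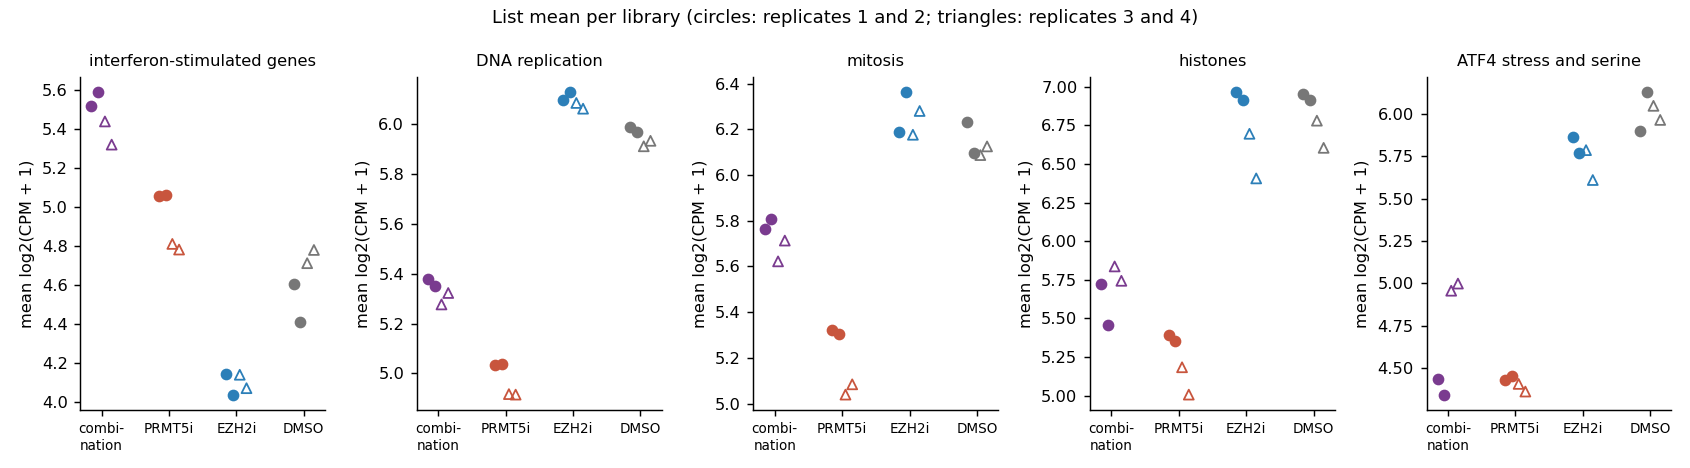
Mean log2(CPM + 1) over the genes of 5 lists in each library, with filled circles for replicates 1 and 2 and open triangles for replicates 3 and 4 of the combination, PRMT5i, EZH2i and DMSO. The interferon-stimulated genes are at 5.32 to 5.59 in the combination and 4.78 to 5.06 with PRMT5i in all replicates. For the ATF4 list, among the combination libraries only replicates 3 and 4 stand above the PRMT5i libraries, and all EZH2i and DMSO libraries stand above both groups.

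Most genes of the cell cycle lists fell with PRMT5i, 41 of 46 replication genes and 28 of 30 mitosis genes when it was given alone and 39 and 23 when it was added to EZH2i, against 18.2% and 14.5% of all genes. CDC45, a part of the active replicative helicase (chr22:19479459-19520612), measured 20.7, 20.2, 21.1 and 21.3 CPM in combination libraries and 14.8, 13.8, 13 and 11.2 CPM in PRMT5i libraries, against 49.2, 48.1, 50.1 and 43.9 CPM in EZH2i libraries and 47.1, 46.2, 46.7 and 48.7 CPM in DMSO libraries. EZH2i and DMSO libraries overlapped, and the combination was clear of PRMT5i. It rose by 0.66 with EZH2i on top of PRMT5i (SE 0.09, adjusted p = 0.000466), with an estimate of 0.02 without PRMT5i (SE 0.08, adjusted p = 0.906), and the interaction was 0.64 (SE 0.12, adjusted p = 0.0271). This call held in 6 of the 16 fits that left out a library.

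CDC45 was the only called gene of 46 on the DNA replication list, of which 16 were higher and 0 lower at an unadjusted p below 0.05, with a median interaction of 0.23. Of 30 mitosis genes none was called, but 23 were higher and 0 lower at an unadjusted p below 0.05, and the median was 0.50. For both lists the shares over all genes were 5.41% higher and 3.5% lower. BUB1, a checkpoint kinase, had 0.49 (SE 0.11, adjusted p = 0.102) and CCNB2, a mitotic cyclin, 0.65 (SE 0.15, adjusted p = 0.114). EZH2i on top of PRMT5i raised 21 of the 46 replication genes and 21 of the 30 mitosis genes and lowered 0, against 2.92% of all genes higher, and EZH2i alone raised 5 and 0, against 4.05%.

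Of 49 tested replication-dependent histone genes, HIST1H4I was the only one called, although all 49 had a positive estimate, with a median interaction of 0.58. At an unadjusted p below 0.05, 35 were higher, against 5.41% of all genes. HIST1H4I averaged 63.9 ± 7.75 CPM in the combination, 38.1 ± 4.52 CPM with PRMT5i, 142 ± 13.8 CPM with EZH2i and 146 ± 12 CPM with DMSO, an interaction of 0.78 (SE 0.15, adjusted p = 0.0382). Histone genes of a class are near-identical, so reads may be divided among copies and the value of a single copy is uncertain. The list's median was 0.28 within replicates 1 and 2 and 0.88 within replicates 3 and 4. HIST3H2BB, a histone H2B gene on chromosome 1 (chr1:228458107-228460470), averaged 2.54 ± 0.588 CPM in the combination and 1.56 ± 0.220 CPM with PRMT5i, against 9.28 ± 1.36 CPM with EZH2i and 14.9 ± 2.90 CPM with DMSO, an interaction of 1.37 (SE 0.24, adjusted p = 0.0165). Its combination replicate 4 stood at 3.42 CPM, above the 2.16 to 2.31 CPM of the other 3.

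A further 9 called genes above the additive level are on none of the lists named so far, HIST3H2BB among them. ACSL1, which activates long-chain fatty acids and was the most abundant called gene, averaged 315 ± 16.1 CPM in the combination, 255 ± 17 CPM with PRMT5i, 172 ± 6.13 CPM with EZH2i and 215 ± 19.4 CPM with DMSO, an interaction of 0.63 (SE 0.11, adjusted p = 0.0166). The ACSL1 call held in 9 of the 16 fits that left out a library. SLFN5, a Schlafen family member known to be induced by interferon, had 1.01 (SE 0.15, adjusted p = 0.00403), and the helicase gene DDX60 had 0.92 (SE 0.16, adjusted p = 0.0166). The guanylate-binding protein gene GBP5 had 1.49 (SE 0.30, adjusted p = 0.0459) and TRIM69, a ubiquitin ligase gene, 0.80 (SE 0.16, adjusted p = 0.0477). SIAH2, a ubiquitin ligase of the hypoxia response, had 0.62 (SE 0.12, adjusted p = 0.0366).

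The 6 genes below the additive level all rose with PRMT5i alone, against 17.1% of all genes, and 5 of the 6 rose with EZH2i alone, against 4.05%. The combination held 0.322 to 0.550 of the additive level, with a median of 0.416. FAM46C, a non-canonical poly(A) polymerase known as a tumour suppressor in myeloma (chr1:117605934-117628372), measured 14.0, 13.6, 13.9 and 14.3 CPM in combination libraries and 9.33, 9.94, 10.4 and 10.7 CPM in PRMT5i libraries, against 12.4, 13, 13.5 and 15.6 CPM in EZH2i libraries and 2.38, 4.21, 4.97 and 4.46 CPM in DMSO libraries. DMSO was below all other groups, and the combination overlapped EZH2i alone. FAM46C rose by 1.76 with EZH2i alone (SE 0.16, adjusted p = 1.16e-05), against an estimate of 0.47 on top of PRMT5i (SE 0.15, adjusted p = 0.0941), an interaction of −1.30 (SE 0.21, adjusted p = 0.00838). It was the only gene below the additive level that was called in all 16 fits that left out a library.

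SIGLEC6, a sialic acid-binding receptor (chr19:51519525-51531856), had a like order of levels, with 10.4 ± 0.868 CPM in the combination, 9.61 ± 0.346 CPM with PRMT5i, 10.5 ± 1.18 CPM with EZH2i and 5.31 ± 0.678 CPM with DMSO, an interaction of −0.86 (SE 0.15, adjusted p = 0.0165). The 3 treated groups overlapped and DMSO was below them, and 16.5% of the gene's exon bases overlap another gene. TSPAN9, a tetraspanin, had the same order at under 1 CPM, with 0.434 ± 0.0623 CPM in the combination, 0.397 ± 0.0909 CPM with PRMT5i, 0.533 ± 0.0147 CPM with EZH2i and 0.153 ± 0.0139 CPM with DMSO. Its libraries held 14 to 27 counts in the combination, 16 to 22 with PRMT5i, 18 to 27 with EZH2i and 5 to 8 with DMSO, and the interaction was −1.64 (SE 0.33, adjusted p = 0.0429). This call held in 2 of the 16 fits that left out a library.

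In the other 3 genes below the additive level the mean was highest with PRMT5i alone, followed by the combination, EZH2i alone and DMSO. PDGFRB, the platelet-derived growth factor receptor beta (chr5:150113837-150155872), measured 3.20, 3.39, 3.62 and 2.89 CPM in combination libraries and 5.94, 4.98, 4.69 and 3.78 CPM in PRMT5i libraries, against 1.34, 1.33, 0.969 and 1.21 CPM in EZH2i libraries and 0.693, 0.873, 0.735 and 0.750 CPM in DMSO libraries. The 4 groups did not overlap, and the order was PRMT5i, combination, EZH2i and DMSO. EZH2i lowered PDGFRB on top of PRMT5i (log2 change −0.57, SE 0.15, adjusted p = 0.0358) and raised it alone (log2 change 0.67, SE 0.17, adjusted p = 0.0255), and no other of the 16555 genes passed both tests in these directions (0.00604%). The interaction was −1.24 (SE 0.23, adjusted p = 0.0195), and the PDGFRB call held in 10 of the 16 fits that left out a library. CXCR3, the receptor of CXCL10, averaged 2.24 ± 0.293 CPM in the combination, 4.12 ± 0.477 CPM with PRMT5i, 0.957 ± 0.324 CPM with EZH2i and 0.627 ± 0.124 CPM with DMSO, an interaction of −1.48 (SE 0.29, adjusted p = 0.0388). ADAMTS10, a secreted metalloprotease, had −1.05 (SE 0.21, adjusted p = 0.0366). The calls of CXCR3 and ADAMTS10 each held in 4 of the 16 fits that left out a library.

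PDGFRB is also on a list of markers of epithelial cells and fibroblasts. Of its 15 markers 7 were tested, with summed levels of 46.4 to 48.3 CPM in combination libraries, 39.5 to 41.7 CPM with PRMT5i, 27.2 to 42.4 CPM with EZH2i and 17.7 to 25.2 CPM with DMSO, and PDGFRB was the only member called. EZH2i alone raised all 7, against 4.05% of all genes. The median interaction was −0.42, with a positive estimate for 1 of the 7. At an unadjusted p below 0.05, 0 were higher and 4 lower, against 5.41% and 3.5% of all genes. The part of other cells in the PDGFRB result was not tested.

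Of the 47 called genes, 7 stayed under 5 CPM in every group: TM6SF1, GDAP1L1, ISG20 and GBP5 above the additive level, and PDGFRB, CXCR3 and TSPAN9 below it. TM6SF1, a membrane protein gene (chr15:83107407-83144854), had 28, 19, 26 and 29 counts in combination libraries and 11, 17, 10 and 9 counts in PRMT5i libraries, against 72, 106, 58 and 71 counts in EZH2i libraries and 101, 68, 113 and 127 counts in DMSO libraries. The combination lay above PRMT5i and below both groups without PRMT5i, and the interaction was 1.65 (SE 0.29, adjusted p = 0.0166). Its counts are uncertain because 38.8% of its exon bases overlap HDGFL3.

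GDAP1L1 (chr20:44247099-44280917) had 7, 1, 1 and 4 counts in combination libraries and 1, 0, 0 and 0 counts in PRMT5i libraries, against 33, 37, 27 and 21 counts in EZH2i libraries and 53, 43, 84 and 80 counts in DMSO libraries. EZH2i lay below DMSO in CPM, and both groups with PRMT5i were near 0. The PRMT5i group held a single count in all, under the floor of 3 counts, so the fitted interaction of 4.33 (SE 0.84, adjusted p = 0.0366) depends on the prior count of the fit, and the call held in 5 of the 16 fits that left out a library. No non-coding gene passed the test.

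**Figure D5:**
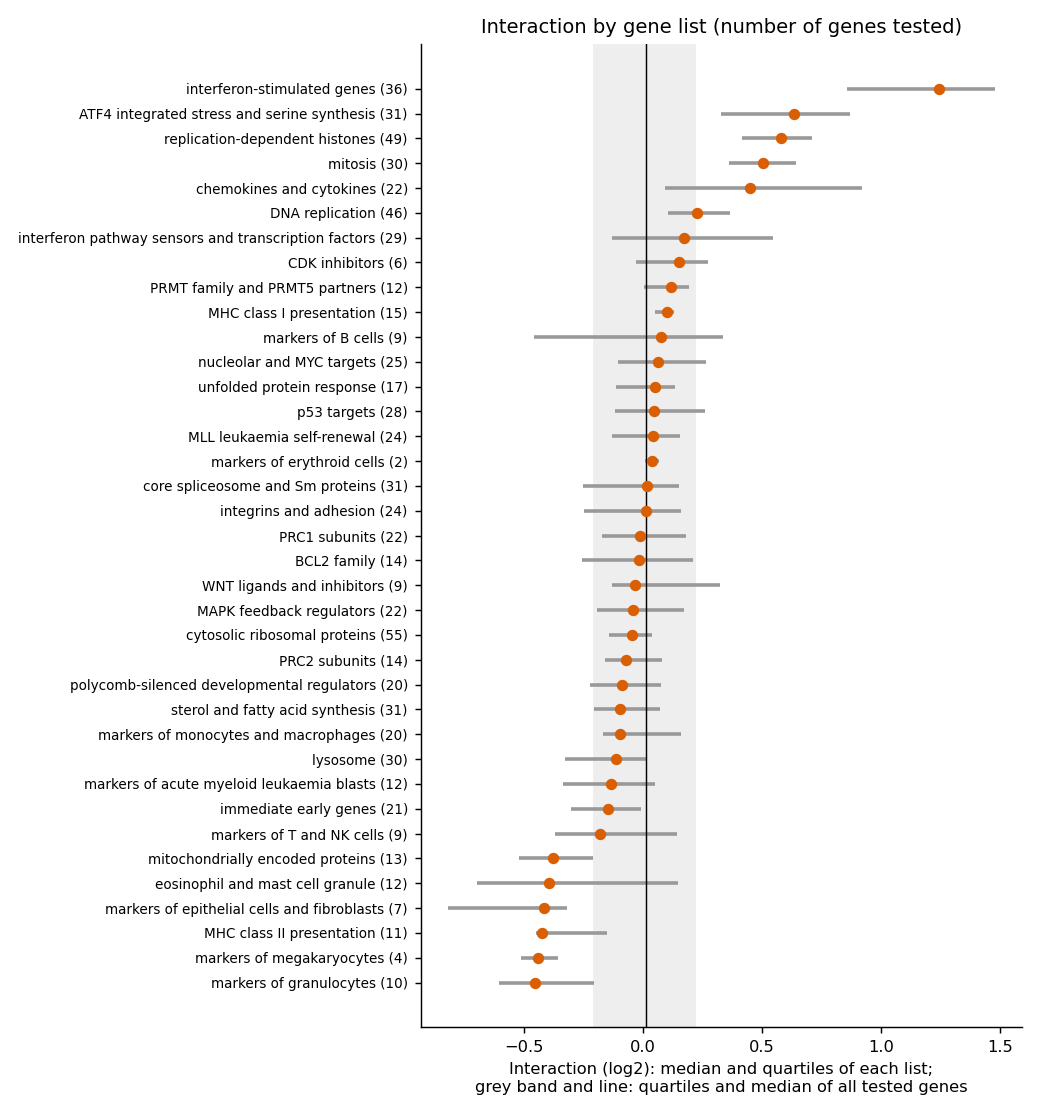
Median interaction (log2) of each of 37 gene lists, with lines from the lower to the upper quartile and the number of genes tested in brackets, beside the quartiles and median of all genes tested in grey. The interferon-stimulated genes lie farthest to the right at 1.24, followed by the ATF4 list at 0.64, histones at 0.58 and mitosis at 0.50.

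Further lists had medians below 0 with few or no calls. Of 11 tested genes of MHC class II presentation, which PRMT5i raised in 10 cases alone and in 10 on top of EZH2i (17.1% and 13.4% of all genes), none was called for the interaction, and the median was −0.42. EZH2i on top of PRMT5i lowered 5 of the 11, against 1.22% of all genes, and EZH2i alone lowered 1. HLA-DMA averaged 2.99 CPM in the combination, 6.18 CPM with PRMT5i, 1.23 CPM with EZH2i and 1.38 CPM with DMSO, an interaction of −0.88 (SE 0.21) that missed the threshold (adjusted p = 0.145). The 10 tested granulocyte markers had a median of −0.46 with 3 lower at an unadjusted p below 0.05, against 3.5% of all genes. MPO, the azurophil granule enzyme, averaged 16.5 CPM in the combination, 15 CPM with PRMT5i, 29 CPM with EZH2i and 15.7 CPM with DMSO (interaction −0.75, SE 0.27, adjusted p = 0.411). The mitochondrially encoded proteins had a median of −0.38, but of 0.20 within replicates 1 and 2 and −0.94 within replicates 3 and 4.

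The lists closest to the targets of the inhibitors held no call. The median interaction was −0.07 over 14 PRC2 subunits, −0.09 over the 20 tested of 124 developmental regulators that polycomb silences, 0.12 over 12 members of the PRMT family and PRMT5 partners, and 0.02 over 31 core spliceosome and Sm proteins. These values lie within the quartiles of all genes tested.

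Just inside the threshold were DDX58, GBP5 and TRIM69, at adjusted p of 0.0435, 0.0459 and 0.0477, and just outside it IFI27, CYP2R1 and DIRAS1, at 0.0513, 0.0556 and 0.0572. IFI27 averaged 23.0 CPM in the combination, 20.3 CPM with PRMT5i, 4.88 CPM with EZH2i and 10.8 CPM with DMSO. When each of the 16 libraries was left out in turn, 26 of the 47 genes were called every time, 25 of them above the additive level, and 13 were called in fewer than 8 of the 16 fits. DDX58 was called in 1, TSPAN9 in 2, ISG20 and TRIM69 in 3, ADAMTS10, CXCR3 and SIAH2 in 4, DDIT3, GBP5, GDAP1L1, HIST1H4I and ISG15 in 5 and CDC45 in 6. Leaving out DMSO replicate 1 gave 40 calls and leaving out DMSO replicate 2 gave 140. The lowest counts were 30 and 28, when PRMT5i replicate 3 or PRMT5i replicate 4 was left out. All 47 genes kept the sign of their interaction in each of these fits.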

How the data were processed

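RNA was measured in 16 MOLM-13 libraries, 4 per treatment, which were paired-end, per the labels. The authors deposited expected counts from RSEM for 60669 genes in 1 table, not scaled to depth, and 12.0% of the values are not whole. The submitters' processing notes name STAR 2.5.3, RSEM and the build GRCh38.p7. The RSEM version, annotation, library kit and strand setting are not given in the sources used here. RSEM divides reads that match several genes, so near-identical copies are uncertain.

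Counts were rounded to integers before fitting. The filter was filterByExpr of edgeR 4.0.16 (R 4.3.3), which left 16555 genes, of which 16437 are in GENCODE release 29 and 12861 are protein-coding. A model of 4 group means with TMM library sizes was fitted to all libraries by glmQLFit with robust empirical Bayes and tested by glmQLFTest. All adjusted p-values are from this edgeR quasi-likelihood test with Benjamini-Hochberg adjustment over the 16555 genes. CPM use TMM-scaled sizes. Coordinates are from GENCODE 29 on GRCh38. DESeq2 1.42.0, limma 3.58.1, other scalings and filters, a GC correction, a replicate block and leaving out libraries were tried as alternatives. The fit was tested on simulated data. Same-numbered libraries of different groups had correlations of their deviations from the group means between −0.272 and 0.236. Of these, 9 of 24 were above 0.1 (median 0.02), against 14 of 72 (median −0.02) for libraries with different numbers. Where both libraries had lower or both had higher replicate numbers, 15 of 48 were above 0.1 (median 0.03). For the other pairs it was 8 of 48 (median −0.07). The libraries thus partly followed the replicate numbers, and the cause was not tested. The numbers were not taken to pair the samples, and the main model held no term for them. Fits with such a term are among the alternatives.

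The genes, the 37 lists and the tests were chosen with earlier results of these data known, so the lists are no independent evidence. Called genes were named by the size of interaction, p and level within each direction, and list members that were not called were chosen for illustration after their values were seen. Lists were described by counts and medians, with no set test. A result for 1 called gene is not reported here.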

Additional observations from a re-analysis of the deposited data

Results flagged for a closer look

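The effect of EZH2i differed with and without PRMT5i, by the test of the interaction itself, for the 47 genes counted above. A check for a library that stood apart from the other 3 of its group was made in 184 groups of 4 libraries, of which 11 were noted, where chance notes about 1 in 20. DMSO replicate 1 was apart in 5 genes: XAF1 at 88.5 CPM (others 101.9 to 104.0), HERC6 at 7.71 CPM (others 7.0 to 7.11), OAS3 at 9.34 CPM (others 16.8 to 17.9), DDIT3 at 38.2 CPM (others 25 to 27.3) and CXCR3 at 0.444 CPM (others 0.669 to 0.710). OASL was apart in DMSO replicate 2, at 15.2 CPM (others 18.7 to 19.2). EZH2i replicate 1 was apart in USP18, at 15.4 CPM (others 14.1 to 14.2), and in PARP9, at 21.4 CPM (others 19.7 to 19.9). HIST3H2BB was apart in combination replicate 4, at 3.42 CPM (others 2.16 to 2.31). TM6SF1 was apart in PRMT5i replicate 2, at 0.331 CPM (others 0.220 to 0.233), and GDAP1L1 in PRMT5i replicate 1, at 0.0200 CPM from a single count (others 0).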

How the results depend on the processing

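The number of genes with an interaction was 47, with 41 above and 6 below the additive level, and scaling, the low-count filter and robust fitting left it between 44 and 50. DESeq2 called 121 (92 and 29), a GC correction 123 (103 and 20), that correction with a replicate block 182 (151 and 31), and limma voom with group weights 34, with 2 below the additive level. With the replicate block alone 49 were called (41 and 8), of which 41 are among the 47, and GDAP1L1, SIAH2, CXCR3, TSPAN9, DDX58 and TRIM69 were not called. A term for replicates 1 and 2 against 3 and 4 gave 67, with 13 below the additive level. Replicates 1 and 2 alone gave 0 calls (0 and 0) in edgeR, with 483 genes at an unadjusted p below 0.05, and replicates 3 and 4 alone gave 306 (161 and 145), of which 39 are among the 47. The cause of these differences was not tested. Leaving out a library gave 28 to 140 calls, 25 to 93 above and 2 to 47 below the additive level, with the highest counts without DMSO replicate 2 and the lowest total without PRMT5i replicate 4. No interaction of the 47 genes changed sign under any alternative that tested it, and TSPAN9 was not tested under the stricter filter and had no adjusted p in DESeq2. The 4 DMSO libraries varied most (voom weight 0.461, against 1.57 in the combination, 1.80 with PRMT5i and 0.768 with EZH2i). The SEs printed here come from an estimate of the spread shared by all groups and do not reflect this. The effect of EZH2i without PRMT5i may therefore be less precise than its SE states. A GC value was available for 16427 of the 16555 genes. For genes under 5 CPM the counts limit precision.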

Other observations

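Some further genes and lists lay outside the comparisons described above, and none of their interactions passed the adjusted threshold. KIT, the stem cell factor receptor, rose with EZH2i alone by 1.6 on the log2 scale (adjusted p = 0.0082) and had an estimate of 0.03 on top of PRMT5i. It averaged 1.78 CPM in the combination, 1.74 CPM with PRMT5i, 0.415 CPM with EZH2i and 0.132 CPM with DMSO, an interaction of −1.57 (SE 0.39, adjusted p = 0.172). CALR, the endoplasmic reticulum chaperone calreticulin, averaged 1083 CPM in the combination, 863 CPM with PRMT5i, 887 CPM with EZH2i and 495 CPM with DMSO, an interaction of −0.51 (SE 0.17, adjusted p = 0.351). CDKN1A, the p53 target and cell cycle inhibitor p21, averaged 228 CPM in the combination, 172 CPM with PRMT5i, 239 CPM with EZH2i and 224 CPM with DMSO, and rose with EZH2i on top of PRMT5i (log2 change 0.41, adjusted p = 0.0038). Its interaction was 0.32 (SE 0.10, adjusted p = 0.338). These genes were chosen after their values were seen.

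Among 31 tested genes of sterol and fatty acid synthesis, EZH2i alone raised 9 and EZH2i on top of PRMT5i raised 3, against 4.05% and 2.92% of all genes, and lowered 0 in either setting. The median interaction was −0.10, with 1 gene higher and 3 lower at an unadjusted p below 0.05, against 5.41% and 3.5% of all genes. The 12 tested genes of eosinophil and mast cell granules had a median log2 effect of EZH2i of 0.67 with PRMT5i and 1.33 without it, a median interaction of −0.40 and no call. Of 20 tested markers of monocytes and macrophages, EZH2i lowered 6 on top of PRMT5i and 6 alone, against 1.22% and 3.39% of all genes, and the median interaction was −0.10.

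The lists of the unfolded protein response, BCL2 family, CDK inhibitors, PRC1 subunits, WNT ligands and inhibitors, MLL leukaemia self-renewal, immediate early genes, MAPK feedback regulators, nucleolar and MYC targets, cytosolic ribosomal proteins, integrins and adhesion, lysosome, and p53 targets had no call, and their median interactions lay between −0.15 and 0.15. The marker lists of erythroid cells, megakaryocytes, T and NK cells, and B cells had no call either, with medians of 0.04 over 2 genes, −0.44 over 4, −0.18 over 9 and 0.08 over 9.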
